A study of Mus musculus with 3 samples.

Results

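The 44 genes described here carry out autophagy, and their transcript levels were compared in mouse blastocysts of young females, of aging females, and of aging females with CXCL5-CXCR2 signaling suppressed in culture. They were chosen by function, from the ULK1 complex that starts autophagosome formation to the lysosomal membrane proteins at its end. A probe was assigned to a member when the RefSeq mRNA record on which it was designed belonged to that gene in the RefSeq gene table of mouse assembly GRCm38.p6. All 44 members had probes, 74 of the 56591 probes used, among 23458 genes that could be named.

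Each of the 3 conditions was measured once, on 1 array with RNA from 1 pool of 30 expanded blastocysts. All embryos came from superovulated female ICR mice, an outbred strain. Per the labels, zygotes were flushed from the oviducts of mated females 18 h after hCG and cultured in KSOM, a medium for mouse embryos, for 96 h. Young females were 3 to 6 weeks of age and aging females were 43 to 53 weeks of age. The young and aging embryos received no treatment, whereas the medium of the suppressed aging embryos held 10 μg/ml of a neutralizing antibody against CXCL5 and 10 nM of a selective CXCR2 antagonist. The effects of the antibody and of the antagonist therefore cannot be told apart, and young embryos with suppression were not analysed here. CXCL5 is a chemokine and CXCR2 its receptor, and the comparisons address how maternal age, and suppression of this signaling in embryos of aging females, relate to blastocyst transcripts.

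Autophagy encloses cytoplasm, damaged organelles or protein aggregates in a double membrane, the autophagosome, which then fuses with the lysosome for digestion. The ULK1 kinase complex and the class III PI3-kinase complex mark the site, ATG9 and ATG2 bring membrane, and a pair of ubiquitin-like conjugation systems attach LC3 and GABARAP proteins to the growing membrane, where cargo receptors dock. In mouse embryos, autophagy is switched on after fertilization, removes maternal proteins and is required for preimplantation development.

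Agilent arrays that read 1 dye (Cy3) were used. The level of a gene is the log2 intensity of its brightest probe minus the 75th percentile of all probes on that array, so that a level of 0 marks this percentile. The percentile was an intensity of 145 in young, 155 in aging and 122 in suppressed aging blastocysts. With 1 array per condition there was no spread between embryos, no test and no P-value, and the number of arrays limits the precision. Differences are therefore given as log2 values and are called past 2-fold when they exceed 1 on the log2 scale in size. The 12 housekeeping genes give a scale for them, with differences of -0.32 to 0.75 for aging minus young, -0.32 to 0.49 for suppressed aging minus aging and -0.24 to 0.43 for suppressed aging minus young. Spots of the same probe on an array varied far less, with a median SD of 0.045 to 0.052, but no member was on such replicate spots.

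The tissue was checked by markers. All 8 trophectoderm and all 8 inner cell mass markers were above background on the 3 arrays. Of 8 cumulus and granulosa cell markers, 4 were above background on all arrays, and Fshr, Has2, Inhba and Cyp11a1 on none. Foxl2 had a level of 8.54 to 8.77, whereas Amh, Cyp19a1 and Star were dim, at levels between -3.79 and -1.01. Oocyte and blood markers were dim, with summed intensities of 214 and 141 in young, 452 and 274 in aging and 166 and 66.5 in suppressed aging blastocysts. Of the 8 oocyte markers 3 were above background on all arrays and 2 on none, and of the 5 blood markers with a probe 1 was on all and 2 were on none. For aging minus young, 7 of the 8 inner cell mass markers were higher (median 1.05), and for suppressed aging minus aging 7 of 8 were lower (median -0.47). Trophectoderm markers ran the other way, with 6 of 8 lower (median -0.18) in the first comparison and 6 of 8 higher (median 0.18) in the second. In whole blastocysts, fewer cells of a type and less RNA per cell cannot be told apart, and the part of these markers in the results below was not tested.

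Autophagy genes were expressed throughout. In 43 of the 44 members (97.7%) the brightest probe was above background on all 3 arrays, against 13811 of all 23458 named genes (58.9%). Ulk2 was the exception, with signal above background only on the suppressed aging array. Levels ran from below the detection limit for Ulk2 to between 8.22 and 8.49 for Gabarapl2, as the plot of levels by step shows.

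**Figure D1:**
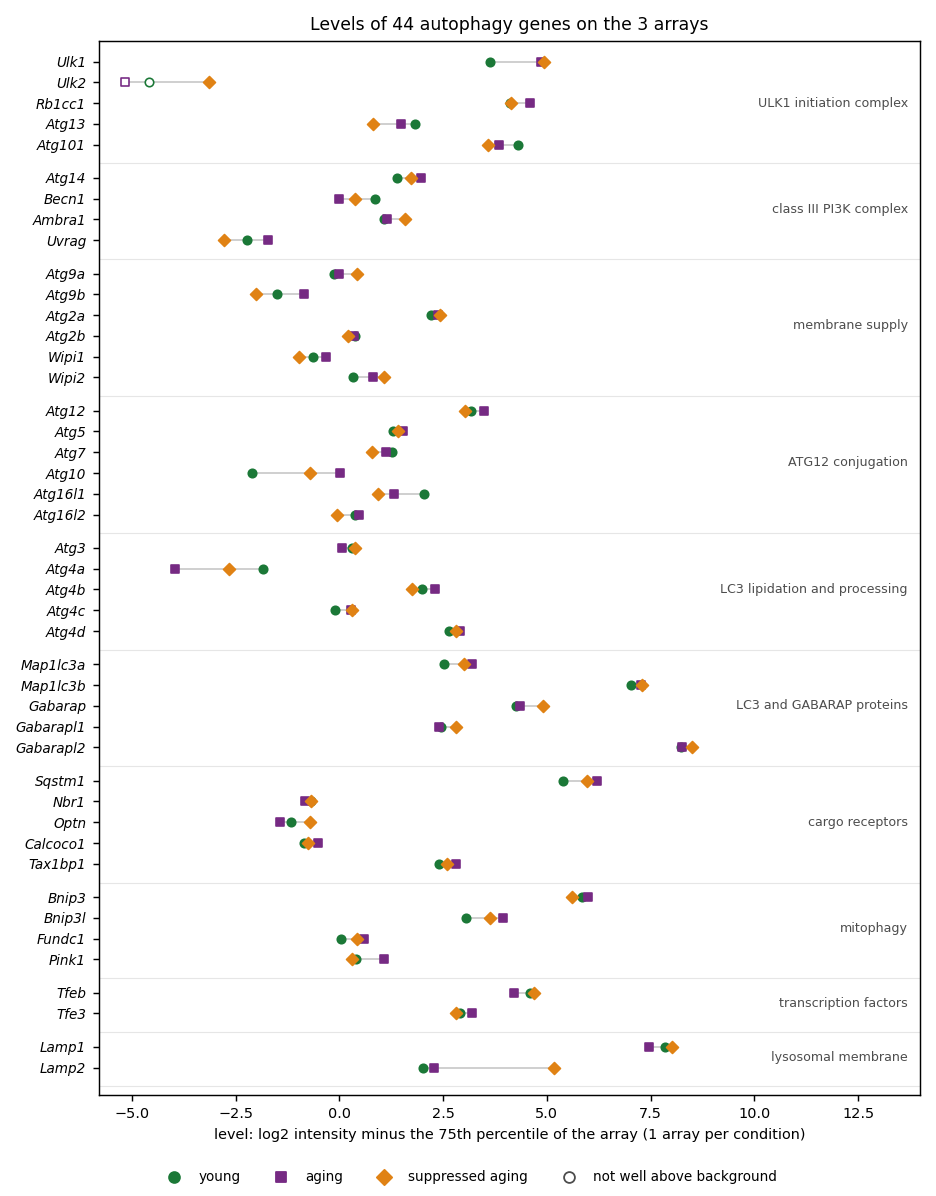
Level of the brightest probe of each of the 44 autophagy genes (log2 intensity minus the 75th percentile of the array) in young (circles), aging (squares) and suppressed aging (diamonds) blastocysts, 1 array each, grouped by step. For most genes the 3 symbols lie close together, whereas Lamp2 stands apart in suppressed aging blastocysts, Atg10 and Atg4a are spread over about 2 log2 units, and Ulk2 is filled on the suppressed aging array alone (open symbols are not well above background).

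Few of these genes differed clearly between aging and young blastocysts. Of the genes compared, 3 of 43 members were past 2-fold (6.98%), against a background of 19.0% over the 16164 named genes that could be compared. The initiating kinase Ulk1 and the ATG12-conjugating enzyme Atg10 were higher in aging blastocysts, among a background of 9.86% past 2-fold in this direction. The LC3 protease Atg4a was lower, against 9.19%. No member was past 5-fold, against 2.59% of all genes. The median difference of the members was 0.24, compared with 0.03 over all genes. On the brightest probe, 30 members were higher and 13 lower, beside 8394 higher and 7770 lower over all genes. On the second probe, available for 22 members, 11 lay above and 11 below zero difference, and their median was 0.014.

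Between suppressed aging and aging blastocysts, 5 of 44 members were past 2-fold (11.4%), with a background of 17.3% of 15875 genes. Lamp2, Atg4a and Ulk2 were higher after suppression (background 8.77%), and Uvrag and Atg9b were lower (background 8.5%). On the brightest probe, Lamp2 was the only member past 5-fold, which 2.29% of all genes were. The median of the members was -0.15 against -0.0034 over all genes. Of the members 19 were higher and 25 lower, beside 7890 higher and 7985 lower over all genes. On the second probe, available for 23 members, 13 were higher and 10 lower.

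For suppressed aging minus young, 6 of 44 members were past 2-fold (13.6%), and the background was 16.3% of 15931 genes. Ulk1, Ulk2, Atg10 and Lamp2 were higher (background 8.67%) and Atg13 and Atg16l1 were lower (background 7.64%). On the brightest probe, again only Lamp2 was past 5-fold, against 2.43%. Dimmer probes of Ulk2 (at least 5.64-fold higher) and Atg2b (5.23-fold lower) were also past 5-fold. The median of the members was 0.15 against 0.03, with 27 higher and 17 lower, beside 8354 higher and 7577 lower over all genes. The 3 comparisons share arrays in pairs, so their values are not independent of each other.

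Most members are bright, and past 2-fold differences were rarer among bright genes. Among members with a mean level above 0, 1 of 35 was past 2-fold for aging minus young, 1 of 35 for suppressed aging minus aging and 4 of 35 for suppressed aging minus young, against 9.48%, 7.64% and 8.49% of all genes above this level. Below a level of 0 it was 2 of 8, 4 of 9 and 2 of 9 members, against 28.2%, 26.8% and 24.0% of genes. Atg4a, Uvrag, Atg9b, Ulk2 and Atg10 belong to this dim group.

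**Figure D2:**
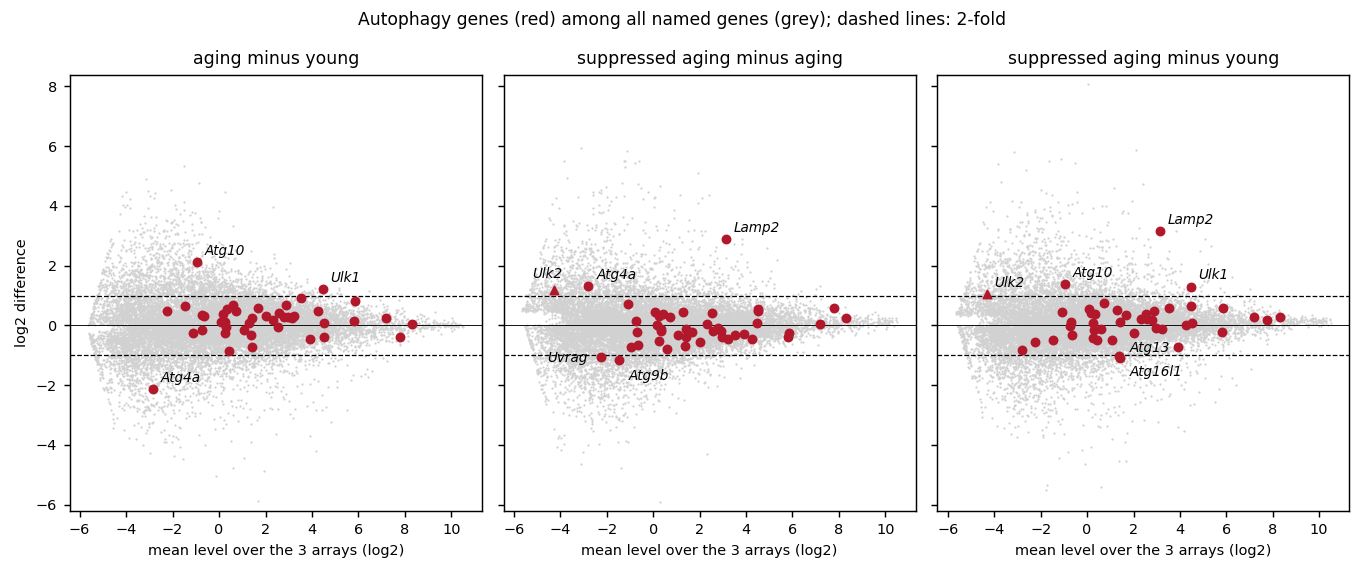
Log2 difference (vertical) against mean level over the 3 arrays (horizontal) for all named genes (grey) and the 44 autophagy genes (red), in each of the 3 comparisons, with dashed lines at 2-fold. Triangles mark Ulk2, whose difference is the smallest that the detection limit allows. Most red points lie between the lines, and Lamp2 at 2.89 and 3.14 is the member farthest from 0.

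The ULK1 complex receives nutrient signals and starts autophagosome formation. Ulk1, its kinase, was at a level of 3.64 in young, 4.86 in aging and 4.94 in suppressed aging blastocysts, so that both pools from aging females were above the young one. The differences were 1.22 for aging minus young, which is 2.33-fold, 1.30 for suppressed aging minus young and 0.08 between the aging pools. A second probe of Ulk1 showed the same order with smaller differences of 0.63, 0.87 and 0.24. Ulk2, the related kinase, was not well above background in young or aging blastocysts and was at -3.15 in suppressed aging blastocysts, at least 2.26-fold above the detection limit of the aging array and at least 2.07-fold above that of the young array. Its other probe was likewise above background only after suppression, at -1.70, at least 6.14-fold and 5.64-fold higher than in aging and young blastocysts. Both Ulk2 signals are dim, at intensities of 13.8 and 37.6.

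The partners of the kinase did not follow it. Rb1cc1, also called FIP200, the scaffold of the complex, was at 4.11, 4.59 and 4.13 in young, aging and suppressed aging blastocysts. It had 6 probes, 2 of them higher and 4 lower in aging than in young blastocysts, over a range of -1.14 to 1.91, so the array gave no single direction for this gene. Atg13, the adaptor that ULK1 phosphorylates, was at 1.82, 1.49 and 0.80 in the same order, 2.03-fold lower in suppressed aging than in young blastocysts (-1.02). Its stabilizing partner Atg101 was at 4.31, 3.85 and 3.57, with differences from young blastocysts of -0.46 in aging and -0.73 in suppressed aging blastocysts. These 2 genes have 1 probe each, and both were highest in young blastocysts.

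The class III PI3-kinase complex produces the lipid that marks the growing membrane. Becn1, or Beclin 1, its central regulator, was at 0.87 in young, -0.0040 in aging and 0.37 in suppressed aging blastocysts, a difference of -0.87 for aging minus young. Atg14, the subunit that directs the kinase to autophagy, was at 1.38, 1.96 and 1.73, higher by 0.57 in aging than in young blastocysts. The Beclin 1 activator Ambra1 was at 1.08, 1.16 and 1.59. Uvrag, the subunit of the complex that acts in endosome and autophagosome maturation, was dim at -2.23, -1.73 and -2.78, with a difference of -1.04 for suppressed aging minus aging, just past 2-fold. Thus the aging pool had the lowest Becn1 and the highest Atg14 and Uvrag of the 3.

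Membrane supply rests on ATG9, which travels in vesicles, on ATG2, which transfers lipids, and on the WIPI proteins, which read the lipid mark. Atg9a was at -0.13, -0.0092 and 0.43 in young, aging and suppressed aging blastocysts. Its paralog Atg9b was at -1.51, -0.85 and -2.00 and was 2.22-fold lower in suppressed aging than in aging blastocysts (-1.15). The dimmer Atg9b probe was above background only in aging blastocysts, at -2.21, which is at least 3.96-fold over young and at least 3.30-fold over suppressed aging blastocysts. Both Atg9b probes were thus highest in the aging pool.

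Atg2a was even across the arrays, at 2.20, 2.38 and 2.42. Atg2b was at 0.38, 0.34 and 0.22, and its 3 probes were all lower in both aging pools than in young blastocysts, with differences of -2.18 to -0.04 and of -2.39 to -0.17. Wipi1 was at -0.64, -0.33 and -0.97, and Wipi2, which recruits ATG16L1 to the membrane, was at 0.33, 0.81 and 1.08. Neither was past 2-fold in any comparison.

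The ATG12 conjugation system links ATG12 to ATG5, and the product with ATG16L1 directs LC3 to the membrane. After suppression the brightest probe of all 6 genes was lower than in aging blastocysts, with a median of -0.42 and differences of -0.73 to -0.12. This direction did not carry over to the other probes, since the second probes of Atg7, Atg10 and Atg16l2 were higher after suppression, by 0.21, 0.94 and 0.99. Atg12 was at 3.16, 3.49 and 3.03 in young, aging and suppressed aging blastocysts, and Atg5 at 1.30, 1.53 and 1.41. Atg7, the activating enzyme shared by both conjugation systems, was at 1.28, 1.11 and 0.78.

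Atg10, the enzyme that transfers ATG12 to ATG5, gave opposite directions on its probes in aging and young blastocysts. It was at -2.11 in young, 0.01 in aging and -0.72 in suppressed aging blastocysts, so aging was 4.34-fold over young (2.12). The second Atg10 probe went the other way, from -2.48 in young to -3.92 in aging and -2.99 in suppressed aging blastocysts, a difference of -1.44 for aging minus young. Both probes were above background on all arrays, and the direction of Atg10 was therefore not settled by this array. Atg16l1, the scaffold that carries the conjugate to the membrane, was highest in young blastocysts, at 2.03, against 1.31 and 0.94 in aging and suppressed aging ones, 2.13-fold lower in the latter than in young (-1.09). Its paralog Atg16l2 was at 0.37, 0.47 and -0.06.

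LC3 is cut by ATG4 proteases and joined to lipid by ATG3. Atg3 was at 0.30, 0.06 and 0.37 in young, aging and suppressed aging blastocysts. Among the proteases, Atg4a was dim and varied most, at -1.85 in young, -3.97 in aging and -2.66 in suppressed aging blastocysts. It was 4.36-fold lower in aging than in young blastocysts (-2.12) and 2.48-fold higher after suppression than in aging blastocysts (1.31), with intensities of 40.3, 9.87 and 19.3. Atg4a has 1 probe.

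The main LC3 protease Atg4b was at 1.99, 2.31 and 1.75, lower after suppression than in aging blastocysts (-0.56), and its second probe was also lower (-1.13). Atg4c was at -0.11, 0.29 and 0.30, and Atg4d at 2.63, 2.90 and 2.81. Both were slightly higher in the pools from aging females.

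LC3 and GABARAP proteins coat the autophagosome and bind the cargo receptors. All 5 were higher in suppressed aging than in young blastocysts, by 0.27 to 0.65 with a median of 0.37, and none was past 2-fold. The 3 second probes, of Map1lc3b, Gabarapl1 and Gabarapl2, were also higher, by 0.44, 0.97 and 0.13. Every scaling tried gave 5 of 5 higher in this comparison. For aging minus young, 4 of the 5 were higher, and 2 of the 5 when arrays were centred on the housekeeping genes.

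Map1lc3a was at 2.51, 3.20 and 2.99 in young, aging and suppressed aging blastocysts. Map1lc3b, the form most used as an autophagosome marker, was at 7.02, 7.26 and 7.29. Among the GABARAP proteins, which act in autophagosome closure and fusion, Gabarap was at 4.25, 4.34 and 4.90, higher by 0.56 after suppression than in aging blastocysts. Gabarapl1 was at 2.44, 2.40 and 2.81, and Gabarapl2 at 8.22, 8.25 and 8.49. On the brightest probe of all 3 GABARAP genes the suppressed aging pool was the highest and the other pools lay within 0.09 of each other. The second Gabarapl1 probe was higher by 0.44 in aging than in young blastocysts.

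Cargo receptors bind ubiquitin or an organelle on one side and LC3 on the other. Sqstm1, which encodes p62, a receptor that is itself degraded by autophagy, was at 5.39 in young, 6.20 in aging and 5.96 in suppressed aging blastocysts. It was higher than in young blastocysts by 0.81 in aging and by 0.57 in suppressed aging blastocysts, and its second probe differed by 0.31 and 0.34. Tax1bp1, another ubiquitin-binding receptor, was at 2.39, 2.80 and 2.60. Its 3 probes were all higher in suppressed aging than in young blastocysts, by 0.21 to 0.68.

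Nbr1, a receptor that works with p62, was at -0.68, -0.83 and -0.69 and was the most even of the receptors. Calcoco1, a receptor for the endoplasmic reticulum, was at -0.86, -0.52 and -0.75. Optn, or optineurin, was at -1.17, -1.43 and -0.70, and its second probe was lowest rather than highest after suppression, with a difference of -0.86 for suppressed aging minus young against 0.46 for the first. No receptor was past 2-fold.

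Mitophagy removes mitochondria through receptors on their outer membrane or through the PINK1 kinase. All 4 genes were higher in aging than in young blastocysts, with a median of 0.61, and all 4 were lower after suppression than in aging blastocysts, with a median of -0.35. The aging pool was thus the highest for each, and none was past 2-fold. These directions were the same under every scaling tried, but several scalings move all genes of an array alike and test the signs little. On second probes, measured for 2 of the genes, both were higher in aging than in young blastocysts. After suppression, 1 second probe was higher and 1 lower than in aging blastocysts. The signs were opposite on the brightest probe for 3 further mitophagy genes, named after their values were seen. Phb2, an inner membrane receptor, had -0.55 for aging minus young and 0.46 for suppressed aging minus aging. The outer membrane receptor Bcl2l13 had -0.34 and 0.43, and the receptor Fkbp8 had -0.16 and 0.18. In the list of 15 other cargo receptors and mitophagy genes that holds them, the medians were -0.10 and 0.10.

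Pink1 was at 0.41 in young, 1.08 in aging and 0.30 in suppressed aging blastocysts. Its differences of 0.67 for aging minus young and -0.78 for suppressed aging minus aging were matched by its second probe, at 0.79 and -0.83. For suppressed aging minus young they were -0.11 and -0.05, so that both Pink1 probes put these pools close together. Bnip3l, or NIX, the receptor that clears mitochondria in maturing red cells, was at 3.04, 3.95 and 3.63, with 0.91 for aging minus young on the first probe and 0.41 on the second. After suppression the first Bnip3l probe differed from aging blastocysts by -0.32 and the second by 0.01. Bnip3, a hypoxia-induced receptor, was at 5.83, 5.99 and 5.60, and Fundc1, another receptor, was at 0.04, 0.59 and 0.41.

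The inner cell mass markers ran in the same directions as the mitophagy genes, 7 of 8 higher in aging than in young blastocysts and 7 of 8 lower after suppression. Sox2 differed by 1.37 and -0.26, Klf2 by 1.31 and -0.93 and Pdgfra by 1.28 and -0.71. Sox17 differed by -1.53 and 0.89, but by 0.33 and 0.34 on its second probe. The trophectoderm markers ran the other way, 6 of 8 lower in aging than in young blastocysts and 6 of 8 higher after suppression. The summed intensities of oocyte and blood markers were also highest on the aging array. The part of all these markers in the mitophagy values was not tested.

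Tfeb and Tfe3 encode the transcription factors that switch on autophagy and lysosome genes when nutrients are low. Tfeb was at 4.60, 4.21 and 4.70 in young, aging and suppressed aging blastocysts, and Tfe3 at 2.91, 3.20 and 2.81. The 3 Tfeb probes differed by -0.40, 0.05 and 0.85 for aging minus young, so this gene had no common direction. Both Tfe3 probes were higher in aging than in young blastocysts, by 0.29 and 0.60, and lower after suppression than in aging blastocysts (-0.39 and -0.46). Neither gene was past 2-fold.

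These factors bind the letters CACGTG, and the longer TCACGTGA, which contains them. Both read the same on either strand. RefSeq promoters of GRCm38.p6, from 250 bases before to 50 bases after the transcription start, were found for 38 of the 44 members. CACGTG was present in 6 of their 45 promoters (13.3%), compared with 7.15% of all 32851 promoters, and TCACGTGA in 1 (2.22%), compared with 0.974%. The stretches upstream of the start with these letters are shown because they place the possible TFEB and TFE3 letters beside the values of the genes that carry them. Capitals mark the matches, and each stretch reads 5′ to 3′ on the gene's strand.
Lamp1, chr8:13159080-13159160, plus strand: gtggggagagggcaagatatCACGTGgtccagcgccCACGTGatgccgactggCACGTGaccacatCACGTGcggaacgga
Atg3, chr16:45158715-45158784, plus strand: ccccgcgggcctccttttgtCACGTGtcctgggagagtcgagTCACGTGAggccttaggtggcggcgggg
Atg5, chr10:44268305-44268338, plus strand: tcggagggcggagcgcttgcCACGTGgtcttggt
Atg7, chr6:114670944-114670989, plus strand: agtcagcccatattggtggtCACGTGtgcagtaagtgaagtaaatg
Bnip3, chr7:138909589-138909634, minus strand: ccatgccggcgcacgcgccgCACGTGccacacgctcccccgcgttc

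Lamp1 stood out with 4 matches, the nearest 15 bases before the start, and Atg3 held both the short and the long form. The sixth gene, Atg14, has a match that crosses the start. The 6 genes shared no direction. For aging minus young, Atg14 and Atg5 were higher by 0.57 and 0.23 and Bnip3 by 0.16, while Lamp1, Atg3 and Atg7 had differences of -0.38, -0.25 and -0.16. After suppression, Lamp1 and Atg3 were higher than in aging blastocysts by 0.57 and 0.31, and Bnip3, Atg7, Atg14 and Atg5 differed by -0.39, -0.33, -0.23 and -0.12. A match of letters is a description of the sequence and not evidence of binding in blastocysts.

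LAMP1 and LAMP2 are among the most abundant proteins of the lysosomal membrane, and LAMP2 is needed for fusion of autophagosomes with lysosomes. One form of LAMP2 is also the receptor of chaperone-mediated autophagy. Lamp2 was the member with the largest difference. It was at 2.02 in young and 2.27 in aging blastocysts and at 5.16 in suppressed aging blastocysts, with intensities of 586, 745 and 4378. The suppressed aging pool was 7.42-fold over aging (2.89) and 8.84-fold over young blastocysts (3.14), whereas aging and young differed by 0.25.

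A second Lamp2 probe, designed on another transcript record of the gene, gave the same order after suppression but a much smaller size. It was at 0.88, 0.80 and 1.42, so that suppressed aging blastocysts were 1.54-fold over aging (0.62) and 1.45-fold over young ones (0.54). The direction was thus shared by both probes and a difference past 2-fold was not. Whether the forms of Lamp2 differed between pools was not tested. Lamp1 was at 7.84, 7.45 and 8.02, higher by 0.57 after suppression than in aging blastocysts, and its second probe, also on another transcript record, differed by -0.19.

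For 21 members, the brightest and a second probe were both measured in each comparison, which reads the same RNA pool a second time. The probes agreed in direction for 13 of 21 members in aging minus young (61.9%), 10 in suppressed aging minus aging (47.6%) and 13 in suppressed aging minus young (61.9%). Over all genes with a second probe, the shares were 56.7%, 54.9% and 56.0%. The median gap between the probes of a member was 0.32, 0.49 and 0.45 on the log2 scale, against 0.55, 0.53 and 0.48 over all genes. The median size of the members' own differences was 0.33, 0.38 and 0.39, so the gap between probes was of the same order. Of the members past 2-fold with a measured second probe, Ulk1 and Lamp2 had the same direction on both probes, Atg10 had opposite directions, and no measured second probe was itself past 2-fold in the same direction. The second probes of Ulk2 and Atg9b gave bounds, as described above.

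**Figure D3:**
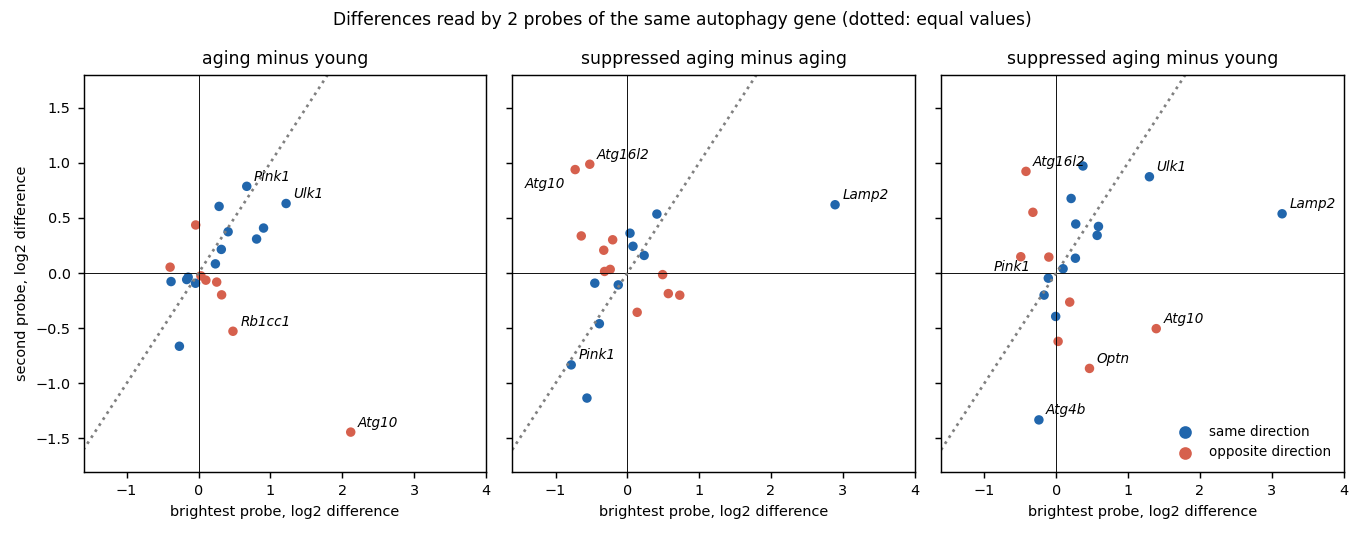
Log2 difference of the brightest probe (horizontal) and of the second probe (vertical) for the 21 autophagy genes with both measured, in each comparison. Blue points have the same direction on both probes and red points opposite directions, and the dotted line marks equal values. Pink1 lies near the line, Lamp2 far to the right of it, and Atg10 changes sign between its probes.

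The rest of the pathway was followed in 80 further genes of the core machinery, lysosome fusion, cargo receptors, nutrient signaling and the lysosome. Of these, 5 were higher and 5 lower past 2-fold in aging minus young, 5 and 1 in suppressed aging minus aging, and 7 and 6 in suppressed aging minus young, which is 12.5%, 7.5% and 16.2% of the 80, beside 19.0%, 17.3% and 16.3% of all genes. Their medians were 0.08, -0.05 and 0.12. All but 2 were above background on the 3 arrays.

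In the core machinery, the catalytic lipid kinase Pik3c3, partner of Becn1 and Atg14, was at -0.03 in young, -1.24 in aging and -1.42 in suppressed aging blastocysts, with differences of -1.21 and -1.39 from young. Becn1 had differences of -0.87 and -0.50 in the same comparisons. Atg14 (0.57 and 0.35), Ambra1 (0.08 and 0.51) and Pik3r4, also of the core machinery (0.27 and 0.18), went the other way. Uvrag had 0.50 and -0.55, so the complex had no common direction. Each of these genes has 1 probe. Tmem41b, a lipid scramblase that works with ATG2, was higher in suppressed aging than in young blastocysts by 1.12, and by 1.13 on its second probe. Rubcn, a brake on the complex with Uvrag, differed by -2.07 in this comparison, but was at least 1.14 higher on its second probe, which was above background only on the suppressed aging array. Zfyve1, known as a marker of nascent autophagosomes, differed by -1.58 and, on its second probe, by 0.72. Wdr45b, of the WIPI family, differed by -1.12 between aging and young blastocysts.

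Genes of fusion with the lysosome, the step at which LAMP2 acts, were higher in suppressed aging than in young blastocysts in 13 of 14 cases. Their median was 0.54 and stayed between 0.37 and 0.54 under the scalings tried. Over all genes, 8354 of 15931 were higher in this comparison, with a median of 0.03. In the lysosome list, 12 of 21 genes were higher, with a median of 0.09. Among the 6 fusion genes with a measured second probe, 3 second probes were higher and 3 lower. The SNARE proteins Vamp8 and Snap29, which drive the fusion, were higher after suppression than in aging blastocysts by 1.01 and 1.26, on 1 probe each. The SNARE proteins Stx17 and Ykt6 differed by 0.23 and 0.14, and the second Stx17 probe by -0.10. Vamp8 was at 5.94, 5.56 and 6.57 and Snap29 at -0.80, -1.45 and -0.19 in young, aging and suppressed aging blastocysts. Both were lowest in the aging pool. The tethering factor Epg5 was higher by 1.14 in suppressed aging than in young blastocysts. Vps11 and Plekhm1 were higher by 1.58 and 1.01 in aging than in young blastocysts on the brightest probe, and their second probes differed by -0.59 and -0.77.

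Among the other receptors, Rtn3, a receptor for tubules of the endoplasmic reticulum, was at 6.65 in young, 3.40 in aging and 4.41 in suppressed aging blastocysts. The difference of -3.24 for aging minus young was also read by its second probe, at -3.08, and suppressed aging minus young gave -2.24 and -2.57. Rtn3 was the gene of the 80 with the largest difference read by both probes, chosen after the values were seen. Retreg1, another receptor of this organelle, was above background only in the pools from aging females, at least 1.95 higher in aging and at least 1.31 higher in suppressed aging than the detection limit of the young array, on the log2 scale.

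Among nutrient sensors, Prkaa2, the catalytic subunit of AMPK, was higher after suppression than in aging blastocysts by 1.64 on one probe and differed by -0.26 on the other. Lamtor5 and Lamtor3, of the complex that tethers mTORC1 to lysosomes, were higher than in young blastocysts by 1.15 in aging and by 1.14 in suppressed aging blastocysts, respectively. Mitf, a relative of Tfeb, was higher by 1.40 in aging than in young blastocysts and lower after suppression (-1.61), whereas its second probe, also above background only on the suppressed aging array, was higher there by at least 1.95. In the lysosome, Hexa, a subunit of hexosaminidase, was higher after suppression than in aging and in young blastocysts by 1.23 and 1.07.

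**Figure D4:**
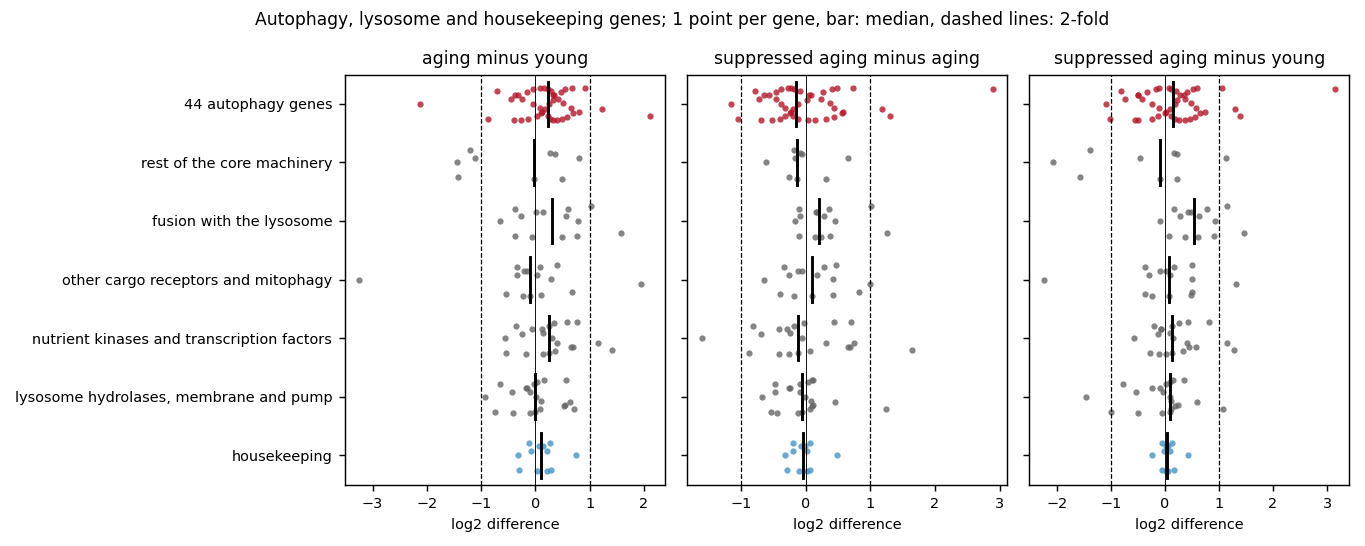
Log2 differences of the 44 autophagy genes (red), 5 further autophagy and lysosome lists (grey) and 12 housekeeping genes (blue) in each comparison, with 1 point per gene, values of genes below detection on 1 array at their limit, a bar at the median and dashed lines at 2-fold. No median exceeds 0.54 in size, the fusion list is shifted to the right for suppressed aging minus young, and the points farthest outside the dashed lines include Atg10, Atg4a, Lamp2 and Rtn3.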

How the data were processed

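For each array, the authors deposited the spot intensity of Agilent Feature Extraction 12.0.3.1, after background subtraction and detrending, and a table of processed intensity. That table held 30763 spots at 3.46, 3.34 and 3.96 times the scanner value of the young, aging and suppressed aging array. Its scale is linear, and each column had a median of 175, 186 and 174.

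Control spots and outlier spots (100, 85 and 118) were left out, the log2 intensities of a probe were averaged, and the 75th percentile of the array was subtracted. A probe was above background when the scanner software flagged most of its spots so. Each gene was read by the probe with the highest mean level. A difference with 1 array below background is a bound against the detection limit, at -4.20, -4.32 and -3.93. Probes were named through the RefSeq gene table (33759 of 56591). Amplification before labeling was described as global PCR in the methods and as linear cRNA labeling in the labels, a difference that the files leave unresolved.

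The members and the gene lists were chosen with earlier results of these data known. Every member is named, and other genes where they were past 2-fold with both arrays above background or at the limit of 1, though not every such gene is reported here. Pik3r4, Phb2, Bcl2l13, Fkbp8, Stx17 and Ykt6 were within 2-fold and are named for comparison. Procedures were tested on simulated data. Python 3.11.15, NumPy 2.4.6, pandas 2.3.3, Matplotlib 3.10.9, R 4.3.3 and limma 3.58.1 were used. The alternatives were normexp correction (offset 50), quantile normalization, centring on detected probes or housekeeping genes, the authors' table, outliers kept, other probes, other filters and 5-fold.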

Additional observations from a re-analysis of the deposited data

How the results depend on the processing

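No paired analysis was possible because there is a single array for every condition, which also means that none was left out. Naming probes by gene name was not run, since the files used hold RefSeq records and no gene names. Normexp used the median spot intensity.

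The 14 differences of members past 2-fold were recomputed 133 times under 10 settings. They kept their direction past 2-fold in 112, kept it within 2-fold in 19 and reversed in 2, both on the second probe of Atg10, with -1.44 for aging minus young and -0.50 for suppressed aging minus young. The cause was not tested. Most settings read the same probe of the same array again, so the counts of 112 and 19 are not independent reads. On second probes, Ulk1 (0.63 and 0.87) and Lamp2 (0.62 and 0.54) were within 2-fold. The second probes of Ulk2 (at least 2.62 and 2.50) and Atg9b (-1.72 or lower) stayed past 2-fold, as bounds. Reversals among other genes were Vps11 (-0.59 on the second probe and -0.48 averaged over probes) and Plekhm1 (-0.77) for aging minus young, Prkaa2 (-0.26) and Mitf (at least 1.95) for suppressed aging minus aging, and Rubcn (at least 1.14) and Zfyve1 (0.72) for suppressed aging minus young, the last 5 on the second probe.

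Members past 2-fold for suppressed aging minus aging went from 5 to 1 with normexp and to 3 on second probes. For suppressed aging minus young they went from 6 to 2 in both settings, with fewer members in the second. On second probes, 20.8% of 5473 and 18.6% of 5498 named genes were past 2-fold in these comparisons. The members past 2-fold with normexp were all higher. Past 5-fold there were 0 for aging minus young and 1 in the other comparisons. Normexp compresses dim probes: all genes past 2-fold were then 5.30%, 4.74% and 4.61%. Under it Atg4a was within 2-fold (-0.63 for aging minus young), as were Uvrag and Atg9b (-0.21 and -0.44 for suppressed aging minus aging). Uvrag was within 2-fold with quantile normalization as well. With normexp, the brighter Atg13 and Atg16l1 were also within 2-fold for suppressed aging minus young (-0.74 and -0.87), as was Atg10. Ulk2 was within 2-fold too, at 0.41 for suppressed aging minus aging and 0.31 for suppressed aging minus young. In the latter comparison Ulk2 was also within 2-fold with housekeeping centring and in the authors' table. The median of the members for aging minus young was 0.14 with housekeeping centring and 0.014 on second probes. For suppressed aging minus aging it was -0.24 in the authors' table, -0.023 averaged over probes and 0.033 on second probes, so its sign depended on the probe. Lamp2 stayed over 2-fold higher after suppression except on its second probe. The count above background was 44 with the scanner's looser criterion. Dim members, near the detection limit, are the least precise.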
